A study of Mus musculus and Homo sapiens with 22 samples.

Results

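Germline genes are known above all from the cells that form eggs and sperm, yet several of them are also transcribed in mouse embryonic stem cells (mESCs). The 10 mouse genes described here were taken by name: Dazl, Ddx4, Mael, Sycp3, Stk31, Tex101, Dppa2, Dppa3, Dppa4 and Dppa5a. They are 10 of the 56196 genes in the count files, all 10 passed the filter on low counts, and together they hold 2 of the 25456 sites in the mESC list of N6-methyladenosine (m6A), a methyl mark on adenosine in mRNA. RNA-seq of poly(A)+ RNA was available for 3 libraries of wild-type (WT) mESCs and 3 libraries of mESCs with a knockout (KO) of Mettl3, the enzyme subunit that writes m6A. Both genotypes came from an earlier publication and were grown in medium with serum and LIF, a cytokine that holds mESCs in the pluripotent state. The miCLIP2 replicates of mESCs are described as biological. Whether each genotype is a single clone, and what separates the RNA-seq replicates, is not given in the sources used here, so p-values measure only the spread between these libraries. The m6A sites were mapped in WT mESCs by miCLIP2, in which an antibody is crosslinked to the mark and its position is read from where reverse transcription stops, and were predicted by the classifier m6Aboost.

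In mESCs, many germline promoters are rich in CpG and are held down by DNA methylation and by a Polycomb complex, PRC1.6, whose subunits MGA and MAX bind the sequence CACGTG and whose subunit E2F6 binds TCCCGC. The Dppa genes (developmental pluripotency associated) are a separate case, since they are part of the expression program of pluripotent cells as well as of early germ cells. In mRNA, m6A is placed mainly in the motif DRACH (D is A, G or U, R is A or G, H is A, C or U) and is known for shortening the life of transcripts.

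Gene counts per library lay between 22746733 and 27254245. Replicates differed by more than sampling noise in both groups, as chi-square divided by its degrees of freedom was 8.76 or more for every pair. Mettl3 itself had 560 to 698 counts in WT and 457 to 669 in KO (log2 fold change −0.50, SE 0.14, adjusted p = 0.0134 by edgeR's quasi-likelihood test, 0.00281 with the replicate number as a block, which passes 0.01), and since the altered exons are not named, these gene counts do not check the labels. All 7 Y-linked genes tested were higher in KO, with a median log2 fold change of 9.78. The 2 cell populations thus also differed strongly in Y-linked RNA, and whether this difference bears on the members was not tested. The mESC markers were abundant in every library (8 genes, summed 3323 to 3894 CPM, the counts scaled to library size, in WT and 2814 to 2902 CPM in KO). Of these, Tdgf1 and Utf1 were lower in KO at an adjusted p of 0.01 (25.0%, beside 29.7% of all genes). Esrrb was higher without passing (log2 fold change 0.43, adjusted p = 0.0106), and passed with the block (adjusted p = 0.00191). Spermatid RNA was at or near 0: Prm1 and Prm2, the protamines of sperm, had 0 counts in all 6 libraries, and 6 spermatid markers summed to at most 0.0762 CPM. The label of germline genes expressed in mESCs held for 9 of the members, while Tex101 stayed below 1 CPM in every library. In bulk RNA, fewer cells expressing a gene and less RNA per cell cannot be told apart.

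The 2 m6A sites are shown because no other exonic site of a member was in the list. Each is given as 21 nt of GRCm38, plus strand, with the 5 nt centred on the A predicted to be methylated in capitals. The first lies in exon 8 of 8 of Dppa2, in the 3′ UTR, 211 nt past the last coding base (chr16:48318909-48318929, site at 48318919). The second lies in coding sequence, in exon 5 of 7 of Dppa4, 458 nt before the last coding base (chr16:48291073-48291093, site at 48291083).
Dppa2: aacatctcTGACTgacagctc
Dppa4: aaaaatgaAGACTgaaccggg
Both pentamers are DRACH motifs. The prediction score, which runs from 0 to 1, was 0.688 for the Dppa2 site and 0.655 for the Dppa4 site. These stood at percentiles 35.6 and 28.1 of the list, whose lowest score was 0.5 and whose median was 0.745. Both genes lie on chromosome 16 with 9671 bp between them, and their products form a pair of DNA-binding proteins that open chromatin in early embryos. With a score of at least 0.7 required, 0 members had a site.

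The other 8 members had no predicted site in an exon, and none in an intron. Of genes tested in the RNA-seq and placed in the annotation, 42.1% had an exonic site, against 2 of 10 members. The share rose with expression up to 1000 CPM (0.482% of genes under 1 CPM in WT, 11.9% from 1 to 10 CPM, 65.2% from 10 to 100 CPM and 82.6% from 100 to 1000 CPM), and was 56.5% of the 62 genes above that. Dazl, Ddx4, Sycp3 and Dppa3 lay between 10 and 100 CPM without a site. Their WT means, 12.4 (Sycp3) to 19.6 CPM (Dazl), were at the low end of that range, and the share was not computed for narrower ranges. Dppa5a, which has only 619 bp of exon, lay between 100 and 1000 CPM without a site. The exons of the members held 433 DRACH motifs, from 8 in Dppa5a to 81 in Dazl, of which 2 (0.462%) were predicted as sites. This share was not computed for other genes, so it cannot be called low or high. No member had a site in any of the 4 mouse heart lists, and none of the 10 human counterparts had one in HEK293T, a human embryonic kidney line. The heart lists held exonic sites in 195, 713, 3597 and 8758 genes. RNA levels in heart and HEK293T were not looked at here, so genes without RNA there are not set apart. The lists give no read depth, so an unmethylated position and a position with too few reads cannot be told apart.

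**Figure D1:**
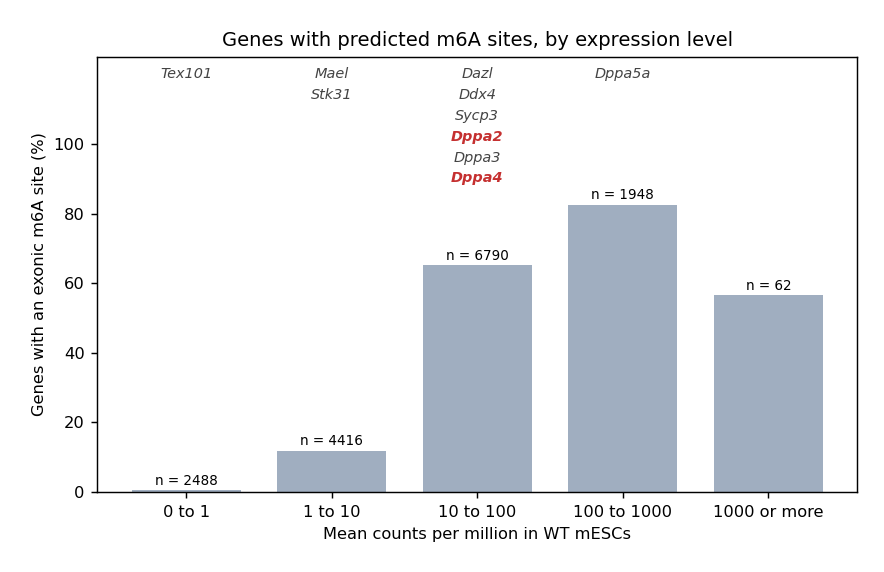
Share of tested genes with at least 1 exonic m6A site (bars, percent) by mean CPM in WT mESCs, with the number of genes above each bar and the members named above their level. Dppa2 and Dppa4, in bold red, are the 2 members with a site. In the same range of 10 to 100 CPM, where 65.2% of genes have a site, 4 other members have none. Their means, from 12.4 to 19.6 CPM, lie at its low end, and the share was not computed for narrower ranges.

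The members covered a wide range of levels. Per kb of exon, Dppa5a stood at 1546 ± 264 CPM per kb in WT (SD, n = 3), above 99.7% of tested genes and far above the next member. Dppa4 followed at 28.3 ± 4.33 CPM per kb and Dppa3 at 21.5 ± 14.1 CPM per kb, and their libraries overlapped, as did those of Dppa3 and Sycp3. Sycp3, Dppa2, Ddx4 and Dazl had means from 5.14 to 9.82 CPM per kb, each overlapping its neighbour in the order. Stk31 (2.82 ± 0.535) and Mael (2.16 ± 0.502) also overlapped each other on this scale, and Tex101 was lowest at 0.128 ± 0.0647 CPM per kb. In KO the order changed between Dppa5a, still highest, and Tex101, still lowest. Ddx4 stood at 8.55 ± 1.28 and Dazl at 1.84 ± 0.667 CPM per kb, and their libraries no longer overlapped. The mean of Dppa3 (34.0 ± 11.1) was above that of Dppa4 (24.3 ± 2.13), with overlap. Dazl was below Mael (2.81 ± 0.117) without overlap, and overlapped Stk31 (1.98 ± 0.466).

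**Figure D2:**
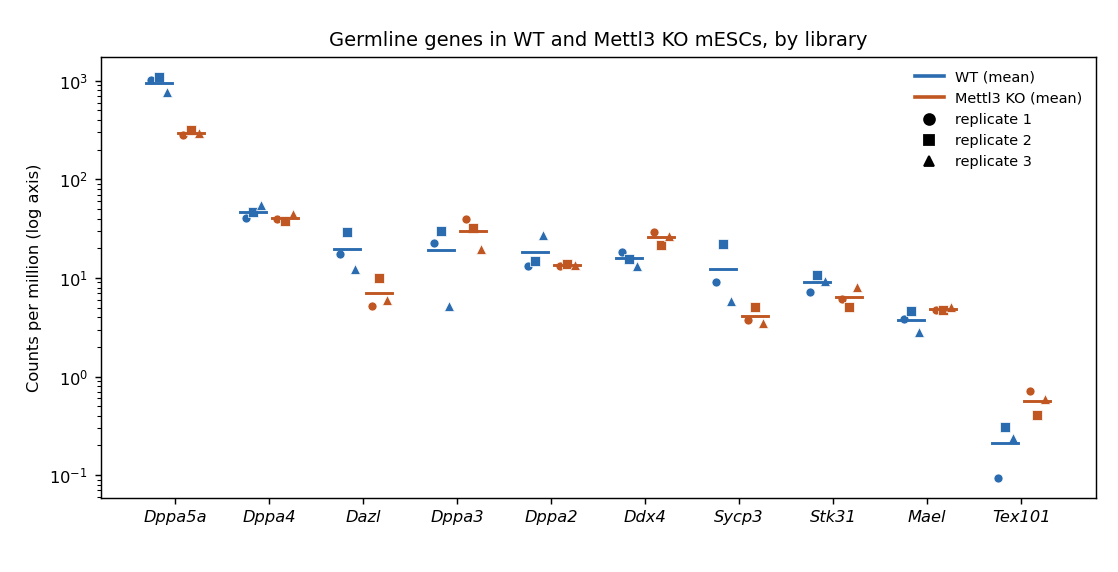
CPM of the 10 members in each library (log axis; circles, squares and triangles are replicates 1, 2 and 3, lines are group means of n = 3). Dppa5a lies between 773 and 1086 CPM in WT and between 284 and 313 CPM in KO, and Dppa3 spans 5.20 to 29.7 CPM within WT alone.

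In Mettl3 KO, 3 members passed an adjusted p of 0.01: the pluripotency gene Dppa5a and the germ cell RNA regulator Dazl were lower, and the germ granule helicase Ddx4 was higher. Of all 15731 genes tested, 29.7% passed, 17.1% higher and 12.6% lower, so 3 of 10 members is close to that background. The log2 fold changes of the members had a median of −0.33, against −0.02 over all genes tested. Scaled by library size alone, the median of all genes moved to 0.08 and the split of calls from 2687 higher and 1982 lower to 2937 and 1199. Under that scaling 2 members passed, and Dazl (adjusted p = 0.0124) did not. With the replicate number as a block, 5 members passed (43.5% of all genes did), with Sycp3 and Dppa3 added. The direction of each member was the same under every alternative run. CPM ranges of WT and KO did not overlap for 6 members, and for 56.1% of all genes tested.

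**Figure D3:**
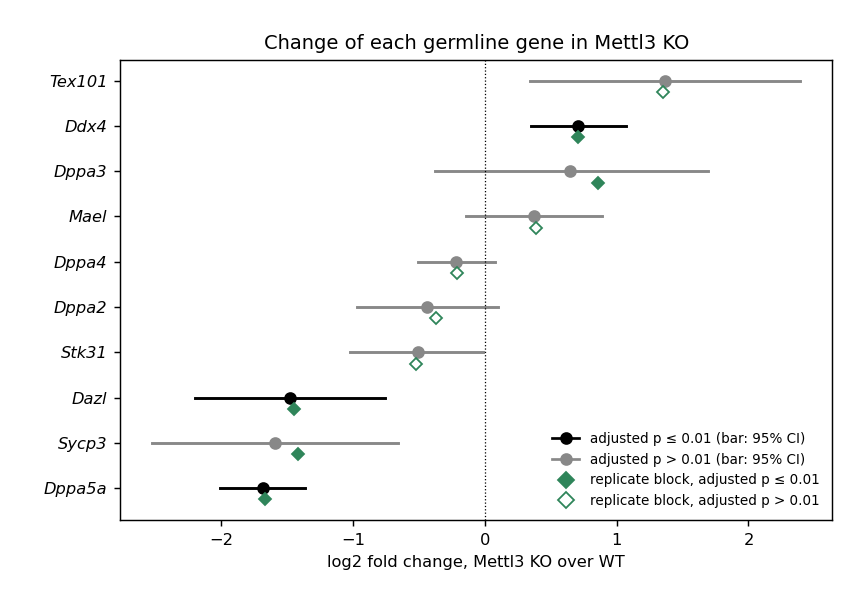
Fitted log2 fold change of each member (circles, bars are 95% confidence intervals, n = 3 against 3), with the value from the fit with a replicate block below it (diamonds). Dppa5a, Dazl and Ddx4 pass an adjusted p of 0.01, and of these 2 fits, Sycp3 and Dppa3 pass in the one with the block.

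Dppa5a encodes a KH-domain protein of pluripotent cells. It had 1012, 1086 and 773 CPM in WT replicates 1 to 3 and 284, 313 and 296 CPM in the KO replicates. The highest KO library stayed well below the lowest WT library. The level in WT was 3.21-fold that in KO (log2 fold change −1.68, SE 0.14, adjusted p = 2.25e-05), and the call held under every alternative, with log2 values from −1.82 to −1.58. Dppa5a made up 85.5 to 88.5% of the summed CPM of the members in WT and 66.7 to 70.7% in KO. Without it, the other 9 members summed to 131 to 174 CPM in WT and 128 to 142 CPM in KO, which overlapped. Annotated copies of this gene, Dppa5b and Dppa5c, had 0 counts in all libraries.

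Dppa2 and Dppa4, the members with m6A sites, did not pass the test. Dppa2 had 13.2, 14.9 and 27.2 CPM in WT and 13.3, 13.9 and 13.6 CPM in KO, so WT replicate 3 alone stood above the other 5 libraries. Its log2 fold change was −0.44 (95% interval −0.97 to 0.10, adjusted p = 0.160), and −0.05 without WT replicate 3. Dppa4 had 40.1, 46.4 and 54.5 CPM in WT and 39.4, 37.5 and 44.3 CPM in KO. The groups overlapped, and the log2 fold change was −0.22 (95% interval −0.51 to 0.08, adjusted p = 0.201).

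Dppa3, also called Stella, guards DNA methylation in the early embryo and marks primordial germ cells. It had 22.7, 29.7 and 5.20 CPM in WT and 39.3, 31.8 and 19.7 CPM in KO. WT replicate 3 was lowest, KO replicate 3 was the lowest of its group, and the groups overlapped. The log2 fold change was 0.65 (95% interval −0.38 to 1.69, adjusted p = 0.276), and with the replicate block it was 0.86 (SE 0.21, adjusted p = 0.00234). It ran from 0.21 without WT replicate 3 to 1.12 without WT replicate 2. The spread within WT (coefficient of variation 65.7%) was larger than for 96.8% of tested genes.

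Dazl binds mRNAs of germ cells and controls their translation. It had 17.3, 29.3 and 12.3 CPM in WT and 5.25, 9.96 and 5.91 CPM in KO. Replicate 2 was highest in both groups, and the groups did not overlap. WT was 2.79-fold above KO (log2 fold change −1.48, SE 0.33, adjusted p = 0.00434). The call was lost on leaving out replicate 1 or 2 of WT, or replicate 1 or 3 of KO, with adjusted p up to 0.0218. Over the 6 libraries left out in turn, log2 values ran from −1.82 to −1.07, the smaller fall being without WT replicate 2.

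Sycp3 forms the lateral elements of the synaptonemal complex, which joins paired chromosomes in meiosis. It had 9.16, 22.2 and 5.86 CPM in WT and 3.78, 5.13 and 3.51 CPM in KO. As for Dazl, replicate 2 was highest in both groups, and each WT library was above each KO library. The log2 fold change of −1.59 (SE 0.42) had an adjusted p of 0.0110, just above the threshold, and with the replicate block it was −1.42 (SE 0.22, adjusted p = 4.02e-05). It was −0.86 without WT replicate 2, and −1.92 with adjusted p = 9.93e-04 without WT replicate 3. Chpt1 overlaps Sycp3 on the other strand, and the counting used strand.

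Ddx4, the mouse Vasa, is an RNA helicase of germ granules, the sites where piRNAs, the small RNAs that silence transposons, are made. It had 18.4, 15.6 and 13.3 CPM in WT and 29.0, 21.5 and 26.8 CPM in KO. Each KO library was above each WT library. The level in KO was 1.63-fold that in WT (log2 fold change 0.71, SE 0.16, adjusted p = 0.00546). The adjusted p rose to between 0.0104 and 0.0320 on leaving out replicate 2 or 3 of WT, or replicate 1 or 3 of KO, while the log2 value stayed between 0.60 and 0.83.

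Mael, another protein of the piRNA pathway, had 3.82, 4.57 and 2.84 CPM in WT and 4.78, 4.73 and 5.10 CPM in KO. The groups came close without overlapping. Its log2 fold change was 0.37 (95% interval −0.14 to 0.89, adjusted p = 0.208). Stk31, a protein of germ cells with a tudor and a kinase domain, had 7.27, 10.7 and 9.40 CPM in WT and 6.17, 5.03 and 8.02 CPM in KO, which overlapped. Its log2 fold change was −0.51 (SE 0.23, adjusted p = 0.0866).

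Tex101, a surface glycoprotein of germ cells, was barely detected, with 2, 8 and 5 counts in WT and 18, 12 and 16 counts in KO. No WT library reached the lowest KO library. The log2 fold change was 1.37 (SE 0.46, adjusted p = 0.0336), which did not pass the threshold at these counts.

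Promoter sequence from RefSeq (GRCm38.p6, 250 bases before to 50 after the start) was matched for 6 of the 10 members, as 7 promoters. All 7 were richer in CpG than the typical promoter, with an observed over expected CpG ratio between 0.666 (Sycp3) and 0.978 (Ddx4) against a median of 0.384 over 32851 promoters. The letters CACGTG, which read the same on both strands, were present in the promoters of Ddx4, Mael, Stk31 and Sycp3, against 7.15% of all promoters. TCCCGC or its reverse complement was present in those of Ddx4, Mael and Sycp3, against 20% of all promoters. Both motifs contain a CpG, and these shares of all promoters are not matched for CpG content. Dazl and Tex101 held neither motif in this window. The Tex101 window (chr7:24672001-24672300, minus strand) lies inside the gene of GENCODE M21, which starts at 24676675, so sequence at that start was not read. The Ddx4 gene of that annotation also starts further upstream, at 112652475, than its RefSeq start. Distances below are from the RefSeq starts. The CACGTG matches are shown with 10 bases on each side, on the strand of the gene and with the motif in capitals, because 4 of the members share this motif.
Ddx4 (chr13:112652324-112652349, minus strand, 29 bases before the start): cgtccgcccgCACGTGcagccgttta
Mael (chr1:166238952-166238977, minus strand, 223 bases before the start): ccaggcctacCACGTGacaatccccg
Stk31 (chr6:49395474-49395499, plus strand, 55 bases before the nearer of 2 starts): gccggccaccCACGTGaccagggctg
Sycp3 (chr10:88459513-88459538, plus strand, 64 bases before the start): cgttggctccCACGTGagaacgggca
Sycp3 (chr10:88459534-88459559, plus strand, 43 bases before the start): gggcatggagCACGTGctaggaggcg
Of these genes, Ddx4 was higher in KO, Sycp3 was lower at an adjusted p of 0.0110 (4.02e-05 with the block), and Mael and Stk31 did not pass either test. A match describes these letters only, and binding was not measured.

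Across 56 other germline genes, changes again went both ways. Of the 48 tested, 7 were higher and 11 lower in KO, with a median log2 fold change of −0.20, and 30 did not pass. These calls are 37.5% of those tested, beside 29.7% of all genes (17.1% higher and 12.6% lower). With the block, 12 were higher and 14 lower, which is 54.2%, beside 43.5% of all genes. Scaled by library size alone, 7 were higher and 7 lower. Exonic m6A sites were present in 6 of the 56, of which 8 were not tested, beside 42.1% of all genes tested. That share is not matched for expression level. It was 0.482% under 1 CPM in WT, 11.9% from 1 to 10 CPM and 65.2% from 10 to 100 CPM. The WT means of the 56 ran from 0 (Slc25a31) to 186 CPM (Kit). No test of the lists against other genes was made.

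Among genes of germ cell fate and RNA control, 3 of 10 tested passed, 1 higher and 2 lower, close to the 29.7% of all genes. Sohlh2, a transcription factor of early oocytes and spermatogonia, had 43.5, 61.3 and 49.3 CPM in WT and 12.9, 19.0 and 18.0 CPM in KO (log2 fold change −1.63, SE 0.18, adjusted p = 8.27e-05). Kit, the receptor that primordial germ cells need to survive, had 203, 174 and 181 CPM in WT and 71.7, 101 and 67.6 CPM in KO (−1.21, SE 0.15, adjusted p = 2.03e-04). Both were lower in every KO library than in any WT library, whereas Boll, an RNA-binding relative of Dazl, was higher at 2.77 to 3.27 CPM in KO against 1.04 to 1.70 CPM in WT (1.10, SE 0.26, adjusted p = 0.00695). The call on Boll was lost whichever replicate was left out, with adjusted p from 0.0121 to 0.0269. Nanos2 had at most 1 count in any library.

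Of 17 genes of the piRNA pathway tested, 4 were higher, 2 were lower and 11 did not pass, so 35.3% were called, near the 29.7% of all genes. Rnf17, a tudor-domain protein of male germ cells, had 167, 174 and 161 CPM in WT and 28.3, 28.7 and 33.7 CPM in KO. This was the largest fall among the germline genes tested, with WT 5.53-fold above KO (log2 fold change −2.47, SE 0.11, adjusted p = 6.38e-07). The helicase Mov10l1, which feeds piRNA precursors into processing, had 3.92 to 12.4 CPM in WT and 2.87 to 3.27 CPM in KO (−1.40, SE 0.35, adjusted p = 0.00906), with adjusted p from 0.0272 to 0.0362 on leaving out any library but WT replicate 3. The tudor-domain scaffolds Tdrd1 and Tdrd7 moved the other way. Tdrd1 had 1.09, 1.75 and 0.378 CPM in WT and 4.34, 6.75 and 4.32 CPM in KO (2.23, SE 0.43, adjusted p = 0.002; 0.0127 without WT replicate 1), and Tdrd7 rose 2.78-fold (1.47, SE 0.25, adjusted p = 9.74e-04). Tdrd6 had at most 2 counts in any library.

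Of 21 genes of meiosis tested, 7 were lower, 2 were higher and 12 did not pass, beside 12.6% lower and 17.1% higher among all genes. Of the lower ones, Syce2 (log2 fold change −1.14) and Tex15 (−0.94) lie on chromosome 8, where 287 of 829 genes tested were lower and 61 higher in KO. They are named for that position, after their values were seen. Smc1b, a cohesin subunit of meiotic chromosomes, had 8.17, 11.4 and 6.71 CPM in WT and 1.79, 1.92 and 2.11 CPM in KO (log2 fold change −2.17, SE 0.25, adjusted p = 1.16e-04). Tex14, which keeps bridges open between dividing germ cells, was 3.52-fold higher in WT (−1.82, SE 0.21, adjusted p = 1.21e-04), and Hormad1, a protein of the meiotic chromosome axis, was 2.96-fold higher in WT (−1.57, SE 0.23, adjusted p = 4.05e-04). All 3 had WT libraries above every KO library. Meiob, which acts in meiotic recombination, was higher in KO from very few counts, 1, 4 and 2 in WT and 15, 40 and 12 in KO (2.93, SE 0.62, adjusted p = 0.00334), and was no longer called without WT replicate 1 (2.63) or KO replicate 2 (2.30). Spo11 had at most 1 count in any library and Slc25a31 had 0 in all.

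Of 21 chromatin regulators of germline genes, 19 lay above the median level of tested genes per kb of exon in WT, and Ring1 and E2f6 lay below it. All 21 were tested, and 4 were higher and 3 lower in KO (33.3%, near the 29.7% of all genes), by between −0.66 and 0.94 on the log2 scale. Exonic m6A sites were present in 19, beside 42.1% of all genes. By WT level the share was 11.9% from 1 to 10 CPM, 65.2% from 10 to 100 CPM and 82.6% from 100 to 1000 CPM. The WT means of the 21 regulators ran from 7.89 (Ring1) to 736 CPM (Trim28). With the block, 5 were higher and 6 lower (52.4%, beside 43.5% of all genes), and the count of calls was 4 without KO replicate 1 or without KO replicate 3. Over all genes tested, the calls fell from 4669 to 2724 and 3097 in these 2 fits. E2f6 had 19.6, 15.2 and 18.5 CPM in WT and 32.6, 29.8 and 38.1 CPM in KO (log2 fold change 0.92, SE 0.14, adjusted p = 6.78e-04). Ring1, a ubiquitin ligase of Polycomb complexes, was higher by a similar size (0.94, SE 0.16, adjusted p = 0.00107). Uhrf1, which brings the maintenance DNA methyltransferase to replicating DNA, was lower (−0.66, SE 0.13, adjusted p = 0.00269; up to 0.0140 without WT replicate 1 or any one KO replicate), as was the heterochromatin protein Cbx3 (−0.63, SE 0.11, adjusted p = 0.00101).

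**Figure D4:**
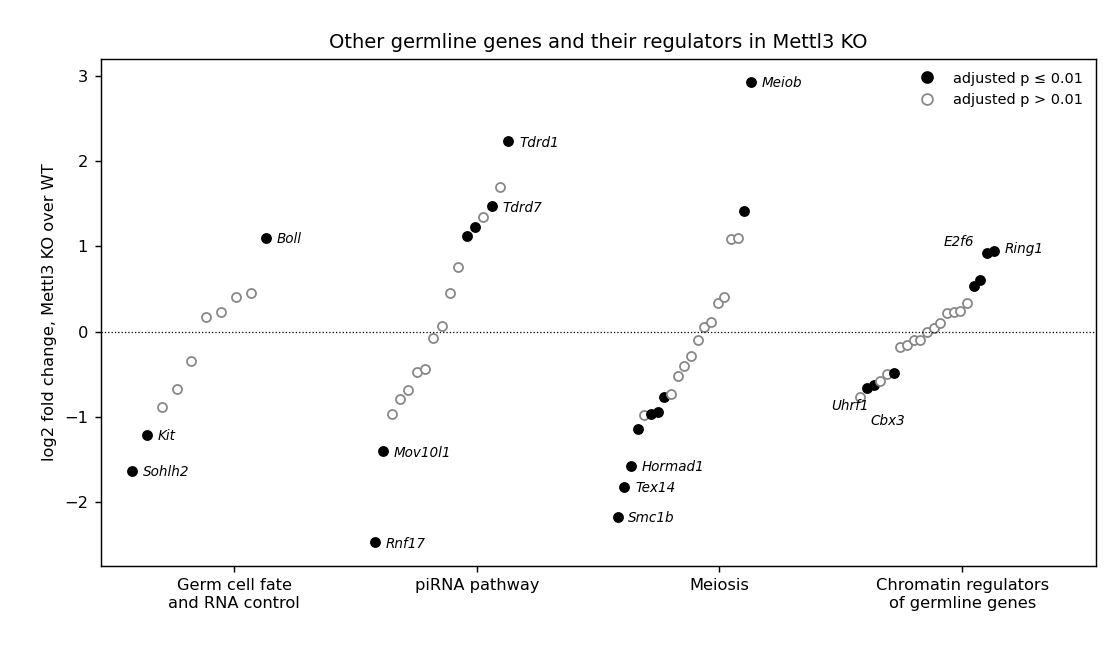
Log2 fold change (KO over WT) of each tested gene in 4 lists, ordered within a list (filled, adjusted p of at most 0.01; open, above it), with the genes described in the text labelled. Rnf17 at −2.47 and Meiob at 2.93 are the extremes, and each list has calls in both directions.

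Some markers of other cell types differed between the groups. Primitive endoderm markers (6 genes) summed to 7.09 to 9.81 CPM in WT and 33.1 to 45.7 CPM in KO, and the rise in the sum was that of Dab2 (log2 fold change 5.05, adjusted p = 3.37e-07). Without Dab2 the sum was 6.00 to 8.78 CPM in WT and 5.23 to 5.53 CPM in KO, with Gata4 called lower (−1.59). Pdgfra was higher in KO without passing (1.02, adjusted p = 0.0124), and passed with the block (adjusted p = 0.00325). Sertoli and Leydig markers (6 genes) summed to 3.40 to 6.17 and 6.15 to 8.91 CPM, which overlapped. Of these Sox9 was called higher (3.27, adjusted p = 1.30e-04), and without it the sums were 3.26 to 5.71 and 3.31 to 4.66 CPM. Feeder fibroblast markers (8 genes) summed to 3.88 to 6.61 and 9.64 to 10.6 CPM, with Thy1 called higher (1.19) and Twist1 (1.26, adjusted p = 0.0145) and Col1a1 (−0.81, adjusted p = 0.0737) not passing. The other 5 fibroblast markers stayed at or below 0.304 CPM. Without Thy1 the fibroblast sums were 1.80 to 3.49 CPM in WT and 3.69 to 5.01 CPM in KO, still without overlap. Oocyte markers (7 genes) summed to 3.54 to 4.54 and 9.79 to 11.4 CPM. Most of this was the egg coat gene Zp3, at 3.02 to 4.16 CPM in WT and 8.64 to 10.4 CPM in KO (1.46, adjusted p = 3.15e-04). Nobox was also called higher from at most 0.677 CPM, and the other 5 oocyte markers stayed at or below 0.358 CPM. Without Zp3 the oocyte sums were 0.378 to 0.519 CPM in WT and 0.776 to 1.15 CPM in KO, also without overlap. Markers of the two-cell-like state (7 genes) overlapped between groups, at 1.80 to 6.33 and 1.11 to 3.72 CPM. The part of these cell types in the members' changes was not tested.

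The genes whose profile over the 6 libraries was most like each called member were found among the 10854 genes that averaged 100 counts or more, by the root mean square difference of centred log2 CPM. For Dazl these were Pla2g5 (0.132) and Aoc2 (0.159). For Ddx4 they were Gm49329 (0.065) and Pls3 (0.0822), and for Dppa5a Pfkp (0.0912) and Gm13212 (0.112). None of these genes is in the germline lists.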

How the data were processed

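The gene counts are whole numbers that the authors made from single-end stranded reads with STAR on GRCm38 and htseq-count on the reverse strand (GENCODE), and deposited without normalisation. The score deposited with the mESC and HEK293T site lists is the m6Aboost prediction, made by the authors from miCLIP2 peaks found in at least 2 replicates. The score of the heart lists has no stated scale, so only positions were used. Counts on lines without a gene, such as those for unaligned or ambiguous reads (36.7 to 42.7% of all counts, which need not equal reads), were left out.

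KO was tested against WT by edgeR 4.0.16 under R 4.3.3 (TMM factors, genes kept by filterByExpr, glmQLFit and glmQLFTest), with Benjamini-Hochberg adjustment over the 15731 genes tested and calls at an adjusted p of at most 0.01. CPM used TMM-scaled library sizes and was divided by the exon length of GENCODE M21, an earlier release than the authors', where genes are compared. Fits were run on simulated counts with known changes, where part of the 2-fold changes and fewer of the 4-fold changes were missed, so a gene that did not pass may still have changed. The replicate numbers of WT and KO libraries were taken to pair them, since the deviations of same-numbered libraries from their group means correlated at 0.122, 0.464 and 0.303 across genes. Libraries with different numbers correlated at −0.342 to 0.11, so the first pair stands close to the highest of these. The block is an alternative because the study's methods do not use one. Other alternatives were DESeq2 1.42.0, its size factors, library size only, filters, an adjusted p of 0.05 and leaving out each replicate. Leaving out both libraries numbered 2 was chosen after seeing the data. Sites were placed in exons on the same strand with Python 3.11.15 and pysam.

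Members, gene lists and tests were chosen with earlier results of these data known. Genes named are the members, up to 4 called genes with the largest change in each list, genes at 3 counts or fewer throughout a group, and the 2 closest profiles to each called member. Marker genes and Mettl3 were named as checks.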

Additional observations from a re-analysis of the deposited data

How the results depend on the processing

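The count of members called in KO was 3. It was 5 with no filter on low counts, 5 at an adjusted p of at most 0.05 and 5 with the replicate block, and it ranged from 1 to 3 when each replicate was left out in turn (1 without WT replicate 2, KO replicate 1 or KO replicate 3, which leaves Dppa5a). DESeq2 called 4, with Sycp3 added, and the fit with no filter added Sycp3 and Dppa3. Calls over all genes moved as well. Of the 15731 tested, 4669 were called, and 2724 (without KO replicate 1) to 5313 (without WT replicate 3) with a replicate left out. Without WT replicate 2 the count was 4049, and without KO replicate 3 it was 3097. DESeq2 called 5481, the block 6837, and the fit with no filter 6406 of 31057. The wider germline genes, 18 called, ranged from 13 to 19 without 1 replicate and stood at 26 with the block. The chromatin regulators, 7 called, stood at 11 with the block, 11 at an adjusted p of at most 0.05, and ranged from 4 to 8 without 1 replicate. With the replicate block (pairing by number), calls on Sycp3 and Dppa3 were gained and no call on a member or on another gene named from the lists was lost. The members with exonic sites fell from 2 to 0 at a score of at least 0.7. Over 129 values of single members under alternatives, 113 kept their side of the threshold, 10 lost a call, 6 gained one and 0 reversed. Over 193 values of other named germline genes and regulators, 170 kept theirs, 23 lost a call and 0 reversed. Without both libraries numbered 2, 2 members were called, beside 3020 of the 15731 genes tested. The cause of these changes was not tested. With 3 libraries a group, 1 library can decide a call at this threshold, and Tex101 and Meiob rest on few counts.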
